A study of Mus musculus with 5 samples.

Results

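Mature dendritic cells marked by Ccr7, Ccl22 and Fscn1 were picked out of single-cell RNA libraries of mouse pancreas (1 of normal tissue and 4 of tumour), and 75 cell barcodes of 10718 kept barcodes met the rule (0.700%, exact 95% interval 0.551 to 0.876). A barcode was kept with at least 200 genes detected and at most 20% of its UMIs (unique molecular identifiers, counted transcripts) from mitochondrial genes. A member then needed at least 3 UMIs of Ccr7, Ccl22 and Fscn1 together, with at least 2 of these 3 genes seen, and at least 50 UMIs of Cd74 (the MHC class II invariant chain) per 10000. It also had to carry fewer than 10 UMIs per 10000 of the macrophage complement genes C1qa, C1qb and C1qc, fewer than 30 per 10000 of Col1a1, Col1a2, Col3a1 and Dcn, and no UMI of Cd3d, Cd3e, Cd3g, Cd79a or Epcam. These values chose the members, so the levels of those genes are given below as a description, with no test.

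The study profiled tissue of untreated mice by droplet sequencing of transcript 3′ ends, 1 library for each group, so no group has a replicate and differences between groups were not tested. Normal pancreas was taken at 60 days from a mixed background of C57BL/6 and FVB, and early KIC tumour at 40 days from the same mixed background. Late KIC (mixed background) and late KPfC tumour (C57BL/6) were taken at 60 days, and late KPC tumour (mixed background) at 6 months. As the names are generally used, KIC stands for loss of Cdkn2a, KPfC for loss of floxed Trp53 and KPC for a mutant form of Trp53, each in pancreatic cells. The Cre driver of each model, and whether a library pools several mice, were not given in the labels or the notes. Age, strain and genotype cannot be told apart where they change together.

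Dendritic cells take up antigen in tissue and, after a maturation signal or during steady-state turnover, switch to a programme for leaving it. They raise Ccr7, the receptor that guides cells along Ccl19 and Ccl21 into lymphatic vessels and the T cell zone of lymph nodes, and Fscn1, which bundles actin into the long processes that name the cell. Antigen uptake falls while peptide display, costimulatory ligands and T cell chemokines such as Ccl17 and Ccl22 (both ligands of Ccr4) go up, together with inhibitory genes such as Cd274, Pdcd1lg2, Cd200 and Il4i1. Cells of this state arise from either conventional lineage: the cross-presenting cDC1 (Xcr1, Clec9a) and the cDC2 (Cd209a, Sirpa) that mainly serve CD4 T cells.

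The members were spread unevenly over the libraries. Normal pancreas held 1 of 2386 kept barcodes (0.0419%, exact 95% interval 0.00106 to 0.233) and early KIC 28 of 3529 (0.793%, 0.528 to 1.14). Late KIC held 5 of 836 (0.598%, 0.194 to 1.39), late KPfC 35 of 2933 (1.19%, 0.833 to 1.66) and late KPC 6 of 1034 (0.580%, 0.213 to 1.26). The intervals of the 4 tumour libraries overlap one another, and the interval of normal pancreas lies below those of early KIC and late KPfC. Among barcodes with at least 50 Cd74 UMIs per 10000 and the same exclusions of collagen and lineage genes, the shares were 1.52% of 66 in normal pancreas (0.0384 to 8.16), 4.54% of 617 in early KIC (3.04 to 6.49) and 3.45% of 145 in late KIC (1.13 to 7.86). They were 4.06% of 863 in late KPfC (2.84 to 5.60) and 3.28% of 183 in late KPC (1.21 to 6.999), and on this base the intervals of all 5 libraries overlap. All intervals cover counting error only. With every barcode thinned to 1500 UMIs the order changed: late KPfC was at 0.784% (0.498 to 1.17) and late KPC at 0.795% (0.259 to 1.85) of the barcodes deep enough.

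**Figure D1:**
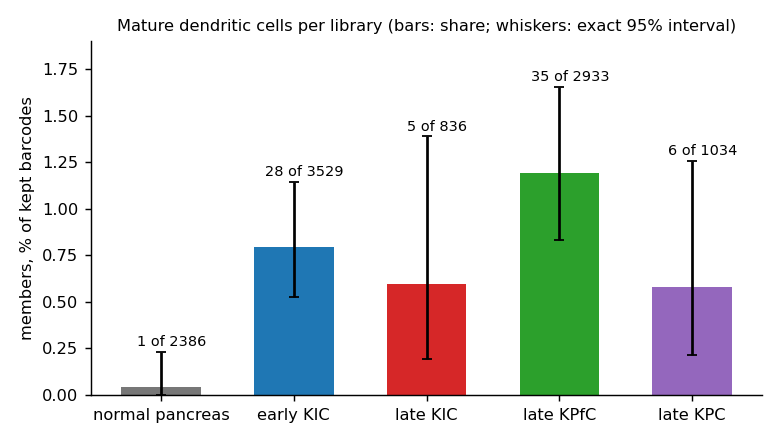
Mature dendritic cells as a percentage of kept barcodes in the 5 libraries, with exact 95% binomial intervals as whiskers. Unthinned, late KPfC is at 1.19% of kept barcodes, and the 4 tumour libraries' intervals overlap.

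Depth differed between the libraries and touches every count below. The libraries held 3488871 to 26749820 UMIs, and the members' median UMIs were 13278 in normal pancreas, 1952 in early KIC, 7453 in late KIC, 7478 in late KPfC and 1883 in late KPC. Macrophages, the class tested against the members, had medians of 1818, 7463, 8233 and 2592 UMIs in the 4 tumour libraries in that order. Summed over members, the libraries held 13278, 54514, 40515, 259589 and 11637 UMIs, so 1 UMI stands for 18.3 CPM (UMIs of a gene scaled to a class sum of 1000000) in early KIC, 24.7 in late KIC, 3.85 in late KPfC and 85.9 in late KPC. A gene at 0 UMIs may still lie as high as 55.0, 74.0, 11.6 and 258 CPM in these sums (3 counts). Pairs of libraries shared 1 to 17 kept barcode sequences. Of the members, 3 share a sequence with a barcode that is no member in another library, and no sequence is a member in more than 1 library. Xist, transcribed in female cells, was seen in 24 of 28 early KIC members and no Y-linked gene was. Late KPfC gave the reverse, with a Y-linked gene in 24 of 35 members and Xist in none. In late KIC 2 members carried Xist and 3 a Y-linked gene, and no member carried both, so the late KIC members include cells of both sexes.

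The labelled cell type was checked against lists of marker genes, some of which hold genes that the rule itself sets to 0. Zbtb46, the transcription factor of the conventional dendritic lineage, had 16 UMIs in the members of the 4 tumour libraries, and the shared dendritic genes are given with the macrophage test below. With Cd3d, Cd3e, Cd3g, Cd79a and Epcam at 0 by the rule, genes of T and NK cells summed to 18.3 CPM or less in every library's members, and those of B cells to 173 CPM in late KIC and 36.7 CPM or less elsewhere. Epithelial genes summed to 75.3 CPM in normal pancreas, 18.3 in early KIC, 148 in late KIC, 181 in late KPfC and 0 in late KPC. Genes of macrophages summed to 1119, 3900, 2743 and 0 CPM in the members of early KIC, late KIC, late KPfC and late KPC, against 34503, 22958, 31441 and 21672 CPM in macrophages. Of 9 plasmacytoid genes 4 had member UMIs, and the defining markers Siglech and Ccr9 had none. The list summed to 789, 247, 146 and 0 CPM in members of the 4 tumour libraries and to 804, 118, 199 and 97.3 CPM in macrophages. Digestive enzyme transcripts of acinar cells made up 37972 CPM in the early KIC members and 34096 CPM in the macrophages of that library, but 69.3 CPM or less in the members of the 3 late tumours. Their part in the results was not tested.

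The single member of normal pancreas stands apart. It carried 359015 CPM of acinar genes, 2 UMIs of Ccr7, 4 of Ccl22 and none of Fscn1, Ccl17, Ccl5 or Il4i1, beside 35 of Cd83 and 4 of Cd40. It enters no test and no ratio. Near the threshold, 10 of the 75 members had exactly 3 UMIs of Ccr7, Ccl22 and Fscn1 and 5 had 4 or 5, while 36 had all 3 genes and 38 had no C1q UMI. Just outside it, 5 barcodes that met the other conditions had 2 UMIs from 2 genes and 54 had at least 3 UMIs from 1 gene alone. Failing 1 other condition were 43 by Cd74, 12 by C1q, 23 by a lineage UMI and 2 by collagen.

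The 3 genes of the rule varied in level among the tumours. Ccr7 stood at 2678, 2962, 1726 and 3781 CPM in the members of early KIC, late KIC, late KPfC and late KPC. Ccl22, a chemokine for Ccr4-bearing T cells, was at 1614, 1654, 2230.4 and 2406 CPM in the same order, and Fscn1 at 587, 1111, 1294 and 859. As counted, Ccr7 was lowest in late KPfC, where Ccl22 was second only to late KPC and Fscn1 was highest. This order was not tested. In late KPC, where 1 UMI is 85.9 CPM, single members held 17 and 10 of the Ccl22 UMIs. Ccr7 was seen in all 75 members, Ccl22 in 70 and Fscn1 in 41. The median member carried 8 UMIs of the 3 genes in early KIC and late KPC, 42 in late KIC and 36 in late KPfC, and the highest 129, in step with the depth of these libraries.

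**Figure D2:**
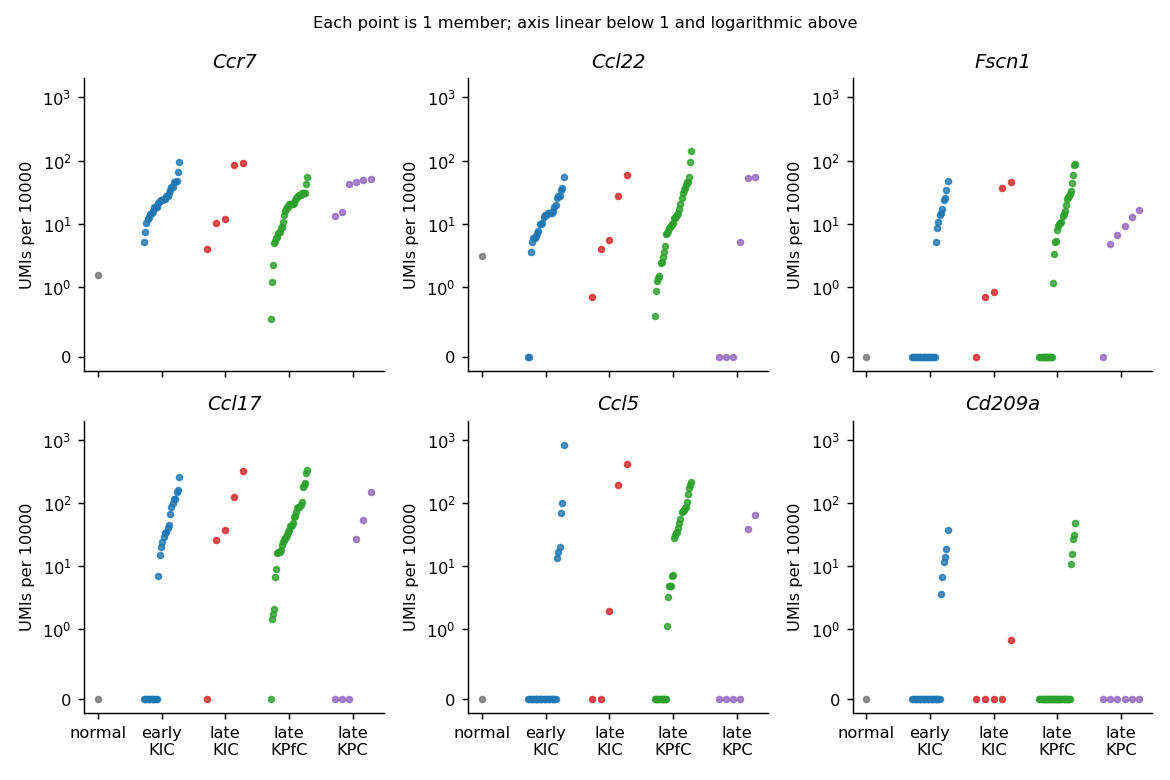
UMIs per 10000 in each member barcode (points, 1 panel per gene, symmetric log axis) for Ccr7, Ccl22, Fscn1, Ccl17, Ccl5 and Cd209a in the 5 libraries. Ccr7 is above 0 in all 75 members, Ccl5 in 35 and Cd209a in 12, and within a library Ccl17 and Ccl5 range from 0 to far above the median member.

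To ask what sets these cells apart from other MHC class II cells, their UMI sums were tested against macrophages of the same libraries. These were 945 barcodes of the 5 libraries with the same filters and at least 30 C1q UMIs per 10000. They had fewer than 3 UMIs of Ccr7, Ccl22 and Fscn1 together and fewer than 2 of Xcr1, Clec9a, Cd209a and Flt3 together. The edgeR quasi-likelihood test used the 4 tumour libraries, with the library as block, so both classes of a library were compared with each other. Its p-values and standard errors (SE) rest on a spread pooled over genes. They do not measure how a single gene varied between the 4 libraries. Of 10257 genes tested outside the rules, 269 were higher in the mature dendritic cells (2.62%) and 452 lower (4.41%) at an adjusted p under 0.05. Without late KPfC, which holds most of the UMIs, the counts were 71 and 151. Without early KIC they were 186 and 171, and without late KIC 246 and 286. The median log2 fold change over all genes was -0.50 (-0.38 with genes at 0 UMIs in a class set to their bound), and each gene list is read against it. The gene lists were chosen with earlier results of these data known, so their counts describe them and support nothing. For some genes below, the sums of members and macrophages are said not to overlap. How many of all 10257 genes show this was not counted, so it describes those genes and adds no support.

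Among chemokines, the mature dendritic cells carried Ccl17 and Ccl5, while most others were higher in macrophages. Of 10 tested, 2 were higher and 7 lower, with a median log2 fold change of -2.82. Ccl17 stood at 5283, 12267, 7928 and 4211 CPM in the members of early KIC, late KIC, late KPfC and late KPC, against 43.4, 99.2, 531 and 146 CPM in macrophages. Every member sum was above every macrophage sum (log2 fold change 5.16, SE 0.36, adjusted p = 6.7e-42, edgeR). A Ccl17 UMI was seen in 58 of 75 members and in 20.4% of macrophages. Ccl5, a chemokine for T cells, stood at 2659.9, 13599.9, 4064 and 1719 CPM against 399, 182, 209.6 and 5.40 in macrophages, again without overlap (log2 fold change 4.40, SE 0.37, adjusted p = 8.2e-29). A Ccl5 UMI was seen in 35 of 75 members and in 26.4% of macrophages. The top 2 members held 86.2% of it in early KIC and 99.8% in late KIC, but 36.4% in late KPfC, which has most of these UMIs. Of Ccl17, the top 2 held 35.1%, 88.3% and 31.1% in these libraries. Ccl2, which draws Ccr2-bearing monocytes, was at 128, 0, 50.1 and 0 CPM in members and 1066, 489.9, 1164 and 270.2 in macrophages (log2 fold change -4.42, SE 0.53, adjusted p = 1.6e-14). The inflammatory chemokines Ccl3 (log2 fold change -3.42) and Ccl4 (-3.87) were lower too, as were Ccl6 (-3.63), Ccl9 (-1.92) and the neutrophil chemokine Cxcl2 (-2.73). Cxcl10 was lower as well (log2 fold change -2.91, adjusted p = 4.3e-04), but not by DESeq2 (adjusted p = 0.524) nor without the block (0.121), and Ccl9 missed the threshold without the block (0.0725). Cxcl16, the ligand of Cxcr6 on resident and effector T cells, did not pass (log2 fold change 0.50, adjusted p = 0.51).

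Ccl22 and Ccl17 lie near each other on mouse chromosome 8, their starts 64769 bases apart on the same strand, with Cx3cl1 between them. Their start regions are shown with those of Il12b and Il4i1, a cytokine and an enzyme gene of the members that macrophages nearly lack, because the results below turn on these 4 genes. Each window runs from 250 bases before to 50 after the transcript start in RefSeq (build GRCm38.p6, all on the plus strand, 4 of 4 genes matched): Ccl22 at chr8:94745434-94745733, Ccl17 at chr8:94810203-94810502, Il12b at chr11:44399813-44400112 and Il4i1 at chr7:44836038-44836337. The Ccl17 window lies inside the gene as the RefSeq gene table of the same build draws it, which begins at 94809380. Capitals mark matches, on either strand, to 5 motifs that were searched.
Ccl22: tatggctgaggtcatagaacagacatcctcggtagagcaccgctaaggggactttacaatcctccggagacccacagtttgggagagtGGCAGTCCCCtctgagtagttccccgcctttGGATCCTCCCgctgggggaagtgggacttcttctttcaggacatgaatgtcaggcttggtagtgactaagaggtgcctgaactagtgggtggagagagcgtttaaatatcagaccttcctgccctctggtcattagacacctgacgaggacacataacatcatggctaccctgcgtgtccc
Ccl17: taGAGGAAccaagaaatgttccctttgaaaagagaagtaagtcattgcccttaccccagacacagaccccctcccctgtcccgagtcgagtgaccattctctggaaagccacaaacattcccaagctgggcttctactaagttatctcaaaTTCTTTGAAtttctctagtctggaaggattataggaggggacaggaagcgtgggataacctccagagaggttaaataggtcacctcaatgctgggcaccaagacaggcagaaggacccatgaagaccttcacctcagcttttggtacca
Il12b: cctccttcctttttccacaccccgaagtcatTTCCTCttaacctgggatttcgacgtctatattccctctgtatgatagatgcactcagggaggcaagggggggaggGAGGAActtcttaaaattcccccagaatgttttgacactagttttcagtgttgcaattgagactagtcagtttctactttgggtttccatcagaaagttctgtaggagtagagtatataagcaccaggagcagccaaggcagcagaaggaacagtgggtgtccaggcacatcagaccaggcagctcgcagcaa
Il4i1: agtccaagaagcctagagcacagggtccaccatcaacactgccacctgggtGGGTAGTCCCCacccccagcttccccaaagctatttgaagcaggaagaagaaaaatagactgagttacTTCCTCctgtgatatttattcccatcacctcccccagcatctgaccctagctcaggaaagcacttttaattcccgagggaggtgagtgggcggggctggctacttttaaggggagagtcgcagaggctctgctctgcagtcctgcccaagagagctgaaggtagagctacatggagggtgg

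The motifs were GGG, any 5 bases and CC for NF-kB-type sites (found in 50.8% of 32851 windows of this length), GAGGAA for the PU.1 core (28.3%), TGANTCA for AP-1 (7.81%), TTCNNNGAA for STAT-type sites (8.3%) and TATAAA for the TATA box (13.6%). Ccl22 holds 2 NF-kB-type matches, 162 and 131 bases before its start, both antisense. Il4i1 holds overlapping NF-kB-type matches 199 and 198 bases before its start and a PU.1 core match at 131. Ccl17 holds a PU.1 core match at 248 and a STAT-type match at 99 bases before its start, and Il12b PU.1 core matches at 219 and 143. A match is a description of letters and not of binding, and motifs this common are found in many genes.

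Of 15 tested genes listed for cytoskeleton and migration in maturing dendritic cells, 10 were higher and none lower, with a median log2 fold change of 1.81. Several of the 10 are not motility genes by function, as their descriptions here show. Tbc1d4, which controls Rab GTPases of vesicle traffic, was at 1192, 864, 532 and 3609 CPM in members (early KIC, late KIC, late KPfC, late KPC) and 35.03, 74.4, 86.3 and 108 in macrophages. All members' sums were above all macrophages' (log2 fold change 3.50, SE 0.40, adjusted p = 1.5e-15), with the highest value in late KPC. The groups did not overlap either for Tmem123, a mucin-like membrane protein (log2 fold change 2.74, SE 0.41, adjusted p = 2.1e-09), Samsn1, a signalling adaptor (log2 fold change 2.23, SE 0.37, adjusted p = 2.8e-07), and Myo1g, a membrane-bound myosin of blood cells (log2 fold change 2.47, SE 0.47, adjusted p = 9.2e-06). Nudt17 was higher (log2 fold change 6.91) with 47 of its 50 UMIs in late KPfC. Adam23 had 22 UMIs in members and 0 in macrophages, at least 112-fold higher, although DESeq2 did not call it (adjusted p = 0.131). Marcks (1.59), which binds actin, and Cytip (1.43), which restrains cell adhesion, were higher but lost the call without late KPfC (adjusted p = 0.0696 and 0.0597) and without the block (0.191 and 0.099), Cytip also without early KIC (0.123). Rogdi (2.51) and Epsti1 (1.81) lost it without late KPfC as well (0.0883 and 0.426), Epsti1 also without late KIC (0.121). Among chemokine and migration receptors, Gpr183, the oxysterol receptor that positions dendritic cells in lymphoid tissue, was at 128, 197, 108 and 258 CPM against 41.7, 58.3, 16.6 and 37.8 (log2 fold change 1.80, adjusted p = 0.0059, but 0.276 without late KPfC and 0.0667 without the block). The monocyte receptors Ccr2 (-3.67) and Ccr1 (-3.04) were lower. Cx3cr1, with 0 UMIs and at least 4.19-fold lower, lost the call without late KPfC (adjusted p = 0.146), by DESeq2 (0.104) and when thinned to 1500 UMIs per barcode (0.0806). Cxcr4 did not pass (-0.35).

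Costimulation genes split. Of 13 tested, 5 were higher and 1 lower (median log2 fold change 0.92): the changes fell among TNF family members and Cd40, whereas the classical B7 ligands did not pass. Cd40, the receptor through which T cells license dendritic cells, was at 220.1, 123, 185 and 429.7 CPM in members and 68.4, 64.5, 33.9 and 5.40 in macrophages. The groups did not overlap (log2 fold change 1.86, SE 0.48, adjusted p = 0.0033), but the call was lost without late KPfC (adjusted p = 0.17) and without the block (0.0608). Cd70, the ligand of Cd27 on T cells, had 18 UMIs in 9 members and 0 in macrophages, at least 91.0-fold higher (adjusted p = 7.2e-14); 16 of the 18 were in late KPfC. Tnfrsf4 (OX40) was at 18.3, 98.7, 119 and 85.9 CPM against 5.005, 2.48, 1.78 and 0 (log2 fold change 4.9996, SE 0.67, adjusted p = 1.4e-11, and 0.138 without late KPfC). Its ligand Tnfsf4 had UMIs in 7 members (log2 fold change 3.97, adjusted p = 1.7e-05) and was higher than in macrophages in 2 of the 4 libraries. Tnfrsf9 (4-1BB) was at 18.3, 568, 539 and 85.9 CPM against 5.005, 18.6, 135 and 5.40, overlapping between groups (log2 fold change 2.81, adjusted p = 1.8e-05, 0.0944 without late KIC and 0.0707 without the block). Its ligand Tnfsf9 was lower (log2 fold change -2.12, adjusted p = 0.002, 0.0941 without early KIC and 0.0606 without the block). Cd80 (log2 fold change 1.22, adjusted p = 0.13), Cd86 (0.59, 0.5) and the maturation marker Cd83 (0.79, 0.21) were each above macrophages in all 4 libraries without passing the test.

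Genes that restrain T cells were among the sharpest differences. Of 16 regulatory genes tested, 6 were higher and 4 lower, with a median log2 fold change of 0.49. Il4i1, a secreted oxidase that breaks down phenylalanine and tryptophan, was at 605, 173, 493 and 429.7 CPM in members and 0, 0, 2.04 and 0 in macrophages, the largest fitted fold among higher genes with at least 50 UMIs that differed the same way in all 4 libraries (log2 fold change 8.19, SE 0.68, adjusted p = 5.0e-30). It was seen in 41 of 75 members and 0.847% of macrophages. Cd200, the ligand of an inhibitory myeloid receptor, was at 55.03, 74.05, 146 and 429.7 CPM against 15.01, 1.24, 2.55 and 5.40 (log2 fold change 4.45, SE 0.62, adjusted p = 1.0e-10). Aldh1a2, which makes retinoic acid, was at 312, 24.7, 312 and 85.9 against 20.02, 3.72, 12.99 and 0 (log2 fold change 3.98, SE 0.59, adjusted p = 2.3e-09). For both genes the groups did not overlap, but the Aldh1a2 sum is 1 UMI in the late KIC members and 1 in the late KPC members. Pdcd1lg2 (PD-L2) was higher as well (log2 fold change 2.65, adjusted p = 1.3e-04, but 0.437 with every barcode thinned to 1500 UMIs). Cd274 (PD-L1) was at 257, 173, 123 and 344 CPM against 36.7, 107, 51.4 and 59.4, above macrophages in each library without passing (log2 fold change 1.30, adjusted p = 0.064). Pvr, a ligand of Tigit, and Socs2 passed narrowly (adjusted p = 0.033 and 0.043) and lost the call without late KPfC (0.337 and 0.42) and in 3 and 4 other settings. The inhibitory receptor gene Vsir went the other way, with 3 UMIs in members against 581 in macrophages. In late KPfC it was 9.28-fold lower (exact 95% interval 3.15 to 45.2), and the test over 4 libraries gave an adjusted p of 3.7e-05. Lgals9 (-3.35), Arg2 (-2.46) and Socs3 (-1.62) were lower too. Lgals9 missed the threshold when thinned (adjusted p = 0.0838), Arg2 without early KIC (0.111) or late KPfC (0.119), and Socs3 without early KIC (0.126), late KIC (0.122), late KPfC (0.171) or the block (0.141). Ido1 had no UMI in members, conventional dendritic cells or macrophages.

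Cytokine genes went both ways. Of 13 tested, 3 were higher and 3 lower (median log2 fold change -0.999, or -0.42 with bounds). Il12b, the shared p40 chain of interleukins 12 and 23, had 110 UMIs in 16 members against 2 UMIs in all macrophages of the tumours. It was at 422, 98.7, 319.7 and 0 CPM in the members, with none seen in late KPC. In late KPfC the ratio was 1256-fold (exact 95% interval 219 to 50186), and the 4-library test gave an adjusted p of 1.5e-24. Ebi3, a chain of interleukin 27, was at 220.1, 123, 88.6 and 172 CPM against 23.4, 14.9, 14.5 and 16.2 (log2 fold change 2.60, SE 0.52, adjusted p = 2.8e-05). Il15ra, which presents interleukin 15, was higher on 19 UMIs (log2 fold change 3.35, adjusted p = 7.6e-06, and 0.431 without late KPfC). Il10 had 5 UMIs in members and stood at 207, 491, 204 and 48.6 CPM in macrophages (log2 fold change -4.38, SE 0.68, adjusted p = 1.7e-08), and Tnf was at 18.3, 24.7, 53.9 and 0 CPM against 250.2, 809.9, 337 and 189 (log2 fold change -3.64, SE 0.55, adjusted p = 7.7e-09). Neither gene's groups overlapped as counted. A count of 0 in the late KPC members may lie as high as 258 CPM, above the late KPC macrophages for both genes. The separation is therefore not resolved in that library. Il18 had 0 UMIs in members, at least 1.73-fold lower (adjusted p = 0.024), a call lost in 8 of the 11 other settings. Il1b was at 2293, 9281, 2912 and 1633 CPM against 1531, 7263, 3925 and 2469 and did not pass (adjusted p = 0.41), nor did Il6 (0.083).

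Within the NF-kB pathway, the transcription factor system behind dendritic cell maturation, 4 of 20 genes were higher and none lower (median log2 fold change 0.39). The 4 include the kinase of its alternative arm and a subunit of that arm. Map3k14, that kinase, was at 183, 24.7, 123 and 344 CPM in members and 21.7, 17.4, 11.7 and 5.40 in macrophages (log2 fold change 2.80, SE 0.53, adjusted p = 1.1e-05). The adaptor Traf1 was at 312, 395, 351 and 773 CPM against 112, 53.3, 70.03 and 43.2 (log2 fold change 2.12, SE 0.43, adjusted p = 5.3e-05). For both, every member sum was above every macrophage sum, but that of Map3k14 in late KIC is 1 UMI. Relb, that subunit, was at 312, 123, 193 and 258 CPM against 53.4, 57.1, 48.4 and 27.02 (log2 fold change 1.73, adjusted p = 0.0066, but 0.198 without early KIC, 0.127 without late KPfC and 0.0546 when thinned). The ubiquitin ligase Birc2 was higher (log2 fold change 2.36, adjusted p = 0.0019, and 0.488 without late KPfC). Nfkb1 (0.41), Nfkb2 (0.35), Rela (-0.12) and the inhibitor Nfkbia (-0.76) did not pass.

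Genes of MHC class II presentation went both ways: 4 of 13 were higher and 4 lower (median log2 fold change 0.02). The chains that present peptide did not pass against macrophages, which were themselves chosen for Cd74. H2-Aa was at 15280.5, 16586, 5474 and 6789 CPM against 9929, 8994, 4423 and 5089.8 (log2 fold change 0.07, adjusted p = 0.93), and H2-Ab1 did not pass either (-0.42, 0.41). H2-Oa, a chain of the H2-O heterodimer that restrains peptide exchange, was at 128, 197, 88.6 and 0 CPM against 6.67, 12.4, 6.11 and 0 (log2 fold change 3.67, SE 0.57, adjusted p = 1.4e-08). H2-DMb2 was higher (log2 fold change 1.63, adjusted p = 0.0049) and H2-DMb1 lower (-1.72, 8.3e-04), but neither call held without the block (0.278 and 0.122), and the first also needed early KIC (0.11) and late KPfC (0.284). H2-Ob (adjusted p = 0.016) was likewise lost without late KPfC (0.725) and early KIC (0.0937), and H2-DMa in 7 settings. The H2 genes are close copies of one another, so a single member is uncertain where reads could be shared. Ctss, which trims the invariant chain, was at 605, 1333, 1159.5 and 945 CPM against 2335, 3261, 2781 and 2491 (log2 fold change -1.93, SE 0.33, adjusted p = 5.2e-07), and the asparaginyl protease Lgmn at 110.1, 74.05, 116 and 258 against 754, 886, 423 and 486 (log2 fold change -2.69, SE 0.45, adjusted p = 2.2e-07). Both were lower in every library with no overlap. For MHC class I, 5 of 15 genes were higher and none lower (median 0.89). Psme2, an activator of the proteasome, was at 532, 568, 939.9 and 516 CPM against 138, 176, 154 and 162 (log2 fold change 1.60, adjusted p = 0.0026). Its call was lost without early KIC (0.0956), without late KPfC (0.185) and without the block (0.0531), and those of Psmb8, Psmb9 and H2-Q7 without late KPfC too (0.191, 0.171 and 0.397) and without late KIC (0.0659, 0.124 and 0.0729). B2m (-0.09) and H2-K1 (0.15) did not pass.

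**Figure D3:**
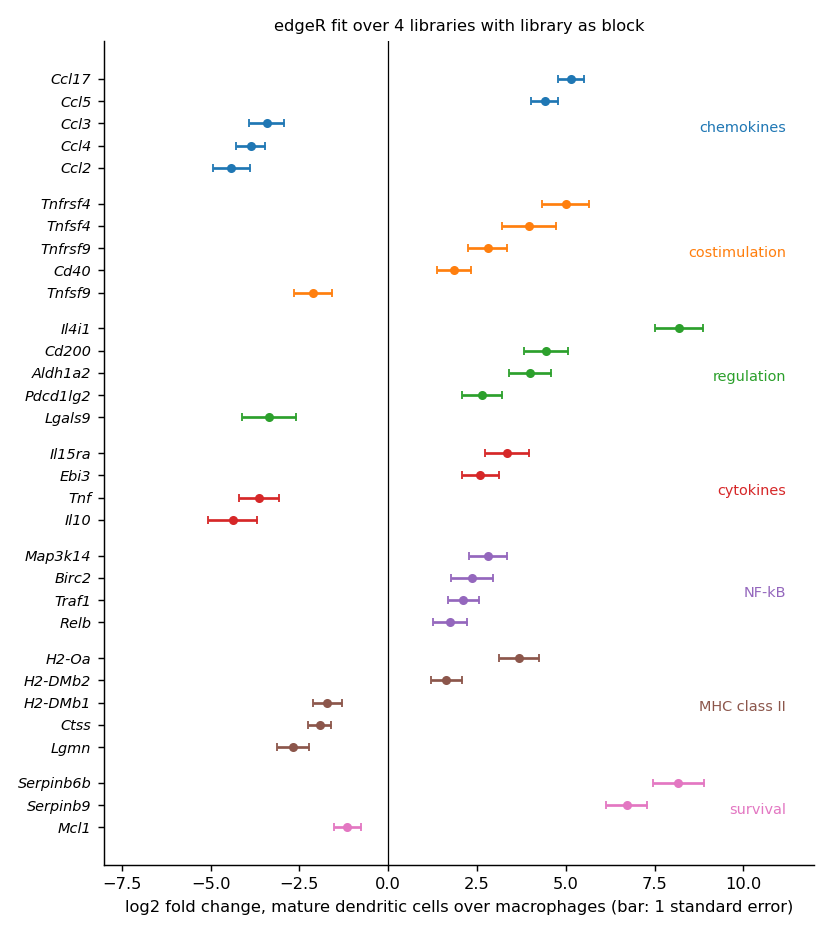
Fitted log2 fold change of mature dendritic cells over macrophages for 31 genes that passed the edgeR test and had more than 3 UMIs in both classes, grouped by role, with bars of 1 standard error (4 tumour libraries, library as block). The bars rest on a spread pooled over genes and not on each gene's own spread between libraries. Ccl17 (5.16), Il4i1 (8.19) and Serpinb6b (8.16) lie far to the right, and Ccl2 (-4.42) and Il10 (-4.38) far to the left.

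Uptake and digestion genes were lower where they passed the test. Of 16 genes of antigen uptake and innate sensing, 11 were lower and none higher (median log2 fold change -2.47), and of 15 lysosomal genes 11 were lower and none higher (-1.77). Of the lysosomal calls, those of Lamp1, Lamp2, Hexa and Cd68 were lost without the block (adjusted p = 0.17, 0.146, 0.137 and 0.0831), without early KIC (0.413, 0.0712, 0.288 and 0.185) and without late KPfC (0.114, 0.127, 0.11 and 0.123), Lamp1 and Lamp2 also without late KIC (0.12 and 0.101), and that of Psap without the block (0.0647). The mannose receptor Mrc1 was at 18.3, 24.7, 50.1 and 0 CPM in members and 254, 315, 241 and 519 in macrophages (log2 fold change -3.27, SE 0.55, adjusted p = 2.4e-07). Cathepsin B (Ctsb) was at 202, 148, 281 and 85.9 against 3348, 961, 1408 and 1086 (log2 fold change -3.39, SE 0.41, adjusted p = 2.4e-14), and lysozyme (Lyz2) at 495, 1259, 1768 and 0 against 20215, 6728, 18128 and 10185 (log2 fold change -4.44, SE 0.32, adjusted p = 3.0e-39). Much of the Lyz2 in late KPfC lay in single members with 127 and 148 UMIs, beside at most 34 in any other. In late KIC a single member held 44 UMIs. No groups overlapped as counted for these 3 genes. For Mrc1 the 0 in the late KPC members may lie as high as 258 CPM, above the macrophages of early KIC and late KPfC. The Fc receptor Fcgr1 (-2.75) and Tlr2 (-2.40) were lower but lost the call without early KIC (adjusted p = 0.0908 and 0.079), Fcgr1 also without late KPfC (0.295). Tlr4, with 1 member UMI, was 7.01-fold lower in late KPfC (exact 95% interval 1.23 to 279), and its call was lost in 6 settings. Of 11 macrophage genes 10 were lower (median -3.12), which is close to what the C1q threshold used. Apoe stood at 440.3, 1654, 389 and 0 CPM in members and 11882, 14798, 11450.2 and 10244 in macrophages, and Ms4a7, absent from all members of the 4 tumour libraries, was at least 14.2-fold lower. Other genes with no UMI in these members included the collagenase Mmp13 (at least 11.6-fold lower), the tissue factor gene F3 (8.61-fold), the scavenger receptor Marco (8.55-fold), Nrp1 (6.12-fold), Mpp1 (6.56-fold), Plod1 (5.49-fold) and Rnase2a (4.99-fold), each as at least that fold. Without late KPfC the calls of F3, Mpp1, Nrp1 and Plod1 were lost (adjusted p = 0.435, 0.12, 0.149 and 0.272), and Marco's without the block (0.152). By DESeq2 those of F3, Nrp1 and Plod1 were lost as well (0.102, 0.115 and 0.133). Haemoglobin transcripts, a measure of red cell RNA in the droplets, were at 440, 913, 720 and 687 CPM in members. Hbb-bs was at 515, 917, 1735 and 5360.0 CPM in macrophages against 275, 518, 424 and 516 in members. Its part in the results was not tested.

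Genes shared by dendritic cells marked the members. Of 12 tested, 6 were higher and none lower (median log2 fold change 1.79). Zbtb46 was at 55.03, 0, 46.2 and 85.9 CPM against 0, 0, 1.27 and 0 (log2 fold change 5.20, SE 0.79, adjusted p = 5.4e-09), on 16 UMIs. The repressor Etv3 was at 495, 296, 281 and 258 CPM against 105, 66.97, 58.3 and 21.6 (log2 fold change 1.97, SE 0.45, adjusted p = 4.6e-04), and Syngr2, a vesicle membrane protein, at 697, 691, 1140.3 and 516 against 128, 131, 139 and 91.9 (log2 fold change 2.19, SE 0.41, adjusted p = 5.9e-06). Ikzf4 had 18 UMIs in members against 3 in macrophages, a ratio of 106 in late KPfC (24.3 to 960). Dpp4 (3.57) and Kit (2.66) were higher and lost the call without late KPfC (adjusted p = 0.0961 and 0.442), Kit also when thinned (0.257). Of 9 cDC1 genes 2 were higher: Itgae (CD103) at 91.7, 74.05, 15.4 and 85.9 CPM against 1.67, 1.24, 1.02 and 0 (log2 fold change 4.51, SE 0.79, adjusted p = 8.7e-07) and the transcription factor Batf3 (log2 fold change 1.96, adjusted p = 0.014, but 0.259 without late KPfC, 0.0899 without late KIC and 0.449 when thinned). Irf8 (1.19) and, of the cDC2 side, Irf4 (-0.15) did not pass. Of 8 cDC2 genes 2 were higher and 2 lower, and none of the 4 calls held without late KPfC. Of 13 survival and apoptosis genes 3 were higher and 1 lower (median 0.27). Bcl2l14 was higher with 16 UMIs in members against 2 in macrophages, a ratio of 113 in late KPfC (26.4 to 1023), and Mcl1 lower (log2 fold change -1.15), a call lost in 4 settings, those without early KIC (adjusted p = 0.352), late KIC (0.282) and late KPfC (0.277) among them. The others were serpins, inhibitors of granzymes and related proteases. Serpinb6b was at 147, 419.6, 682 and 172 CPM against 0, 1.24, 2.04 and 0 (log2 fold change 8.16, SE 0.71, adjusted p = 2.9e-27) and Serpinb9 at 275, 296, 497 and 1547 against 1.67, 1.24, 5.09 and 5.40 (log2 fold change 6.72, SE 0.57, adjusted p = 1.2e-28), though reads of these close copies may be shared. Further genes with the largest folds were Cacnb3, a calcium channel subunit (log2 fold change 7.56, SE 0.74, adjusted p = 1.6e-21), Eno3, the muscle enolase (log2 fold change 5.59, SE 0.64, adjusted p = 1.4e-15), the uncharacterised transcript Gm13546 (log2 fold change 5.60), the interleukin-12 signal transducer Stat4 (log2 fold change 4.16, SE 0.61, adjusted p = 1.6e-09) and Hmgn3 (3.88, lost without late KPfC at 0.463).

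Against conventional dendritic cells, the cells from which this state arises, the data allow ratios but no test, since early KIC and late KPfC alone have at least 5 barcodes of both classes. Conventional dendritic cells were 71 barcodes with at least 2 UMIs of Xcr1, Clec9a, Cd209a and Flt3, fewer than 3 of the maturation genes and the same exclusions. They numbered 23 in early KIC (median 2029 UMIs) and 27 in late KPfC (median 6552), close to the members' depth. The rule for members sets no limit on Xcr1, Clec9a, Cd209a and Flt3, so some members also meet the cut on these genes. Single late KPfC members held 28 and 29 Cd209a UMIs. Such members are set apart from the conventional class by the maturation genes alone. Of 619 genes with at least 20 UMIs in both libraries' pairs, 27 were at least 2-fold higher in both libraries (4.36%), 20 at least 2-fold lower in both (3.23%) and 3 went opposite ways (0.485%). The median log2 ratio over these genes was 0.14 in early KIC and -0.15 in late KPfC. Intervals in this comparison are exact 95% intervals of counting error.

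The genes higher in both libraries included genes of several lists. Ccl17 was 9.11-fold (6.31 to 13.6) higher in early KIC and 6.72-fold (5.90 to 7.66) in late KPfC, and Ccl5 5.43-fold (3.58 to 8.53) and 69.9-fold (40.7 to 132). Il4i1 was 11.1-fold (3.49 to 56.7) and 18.4-fold (8.21 to 51.01) higher, Aldh1a2 5.73-fold (1.66 to 30.5) and 23.3-fold (7.68 to 115), and Il12b 5.82-fold (1.99 to 23.1) and 35.7-fold (9.59 to 300.1). Tbc1d4 (16.4-fold, 6.12 to 62.1, and 9.14-fold, 5.17 to 17.6), Samsn1 (5.17-fold, 2.50 to 12.02, and 6.67-fold, 4.45 to 10.4) and Tmem123 (4.50-fold, 2.15 to 10.5, and 9.91-fold, 6.52 to 15.7) were higher again. Fabp5, a carrier of fatty acids and retinoic acid, had the widest ratio in late KPfC: its level was 459 CPM against 54.4 in early KIC and 2269 against 31.3 in late KPfC, ratios of 8.43-fold (2.57 to 43.6) and 72.5-fold (34.96 to 181). Cd63, a tetraspanin of late endosomes, was 3.04-fold (1.15 to 9.34) and 40.6-fold (18.4 to 112) higher than in conventional cells while not passing against macrophages (log2 fold change -0.54), in which it was at 769, 735, 719.9 and 816 CPM. Also higher were Pik3r1, the regulatory subunit of PI3 kinase (6.83-fold, 2.38 to 26.9, and 5.07-fold, 3.30 to 8.08), the early-response receptor gene Nr4a3 (5.73-fold, 2.38 to 16.7, and 2.84-fold, 2.06 to 3.98), Ramp3 (3.04-fold, 1.32 to 7.82, and 5.81-fold, 3.90 to 8.99) and Cxcl16 (2.61-fold, 1.31 to 5.59, and 2.21-fold, 1.60 to 3.10).

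Of the 20 genes lower in both libraries, the lectin Clec10a was 2.52-fold (1.21 to 5.60) lower in early KIC and 11.4-fold (5.27 to 29.5) in late KPfC, the membrane protein Ms4a6c 6.18-fold (2.13 to 24.4) and 14.1-fold (6.55 to 36.1), and the cDC1 gene Naaa 2.47-fold (1.04 to 6.49) and 8.13-fold (4.17 to 17.7). The conventional class was chosen by Xcr1, Clec9a, Cd209a and Flt3, so genes expressed along with these may be raised in it by that choice. Its part in these ratios was not tested. H2-DMb1 was 2.41-fold (1.46 to 4.10) and 4.91-fold (3.66 to 6.70) lower. Plac8 was 2.31-fold (0.833 to 7.32) and 7.06-fold (4.97 to 10.3) lower and the chromatin protein of dividing cells Hmgb2 2.22-fold (0.920 to 5.91) and 9.58-fold (6.004 to 16.1), and the early KIC intervals of these 2 genes include 1. Ratios near 1 in both libraries were those of H2-DMb2 (0.984-fold, 0.600 to 1.61, and 0.978-fold, 0.679 to 1.41) and Nfkb1 (1.35-fold, 0.739 to 2.50, and 1.16-fold, 0.870 to 1.55). Of the lists, 4 of 9 compared cytoskeletal genes, 3 of 8 chemokines and none of 8 NF-kB genes were higher in both libraries, beside 4.36% of all genes. Lower in both were 1 of 4 uptake genes, 1 of 8 MHC class II genes and none of 10 lysosomal genes, beside 3.23% of all genes.

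**Figure D4:**
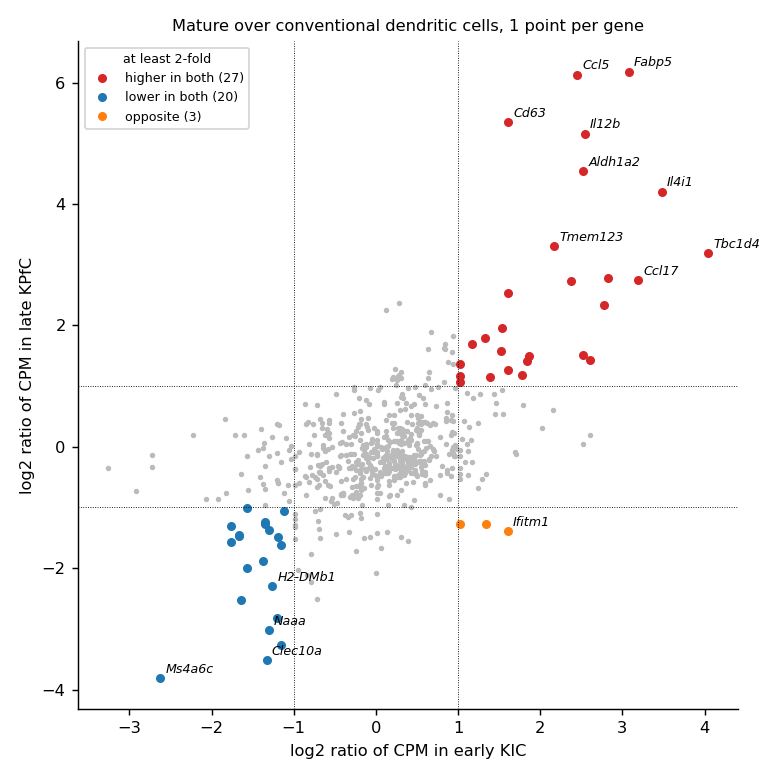
Log2 ratio of CPM, mature over conventional dendritic cells, in early KIC (horizontal axis) and late KPfC (vertical axis) for 619 genes (points), with the genes at least 2-fold apart in both libraries coloured by direction. Of the coloured genes 27 lie in the upper right, 20 in the lower left and 3 in the opposite corners.

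The members were not all alike, and Fscn1 divided them. A Fscn1 UMI was seen in 41 and not in 34, with 10 and 18 in early KIC, 22 and 13 in late KPfC, 4 and 1 in late KIC and 5 and 1 in late KPC. The median depths of the members with and without it were 1667 and 2063 UMIs in early KIC and 7693 and 7109 in late KPfC. This split was chosen after the values were seen and rests on a gene of the rule, so it is a description with no test. Of 334 genes compared in both libraries, 12 were at least 2-fold higher in members with Fscn1 in both (3.59%), 9 lower (2.69%) and 1 opposite (0.299%). Within late KPfC alone, 193 of 1569 were higher (12.3%) and 145 lower (9.24%).

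Ccl5 followed Fscn1: it was seen in 31 of 41 members with a Fscn1 UMI and in 4 of 34 without. In early KIC all 145 Ccl5 UMIs were in members with Fscn1, at least 109-fold higher. A single member with 2 Fscn1 UMIs held 113 of the 145, so this fold rests largely on that barcode. Of the 10 early KIC members with Fscn1, 6 had a Ccl5 UMI. In late KPfC the ratio was 4.90-fold (4.03 to 6.01). Higher in both were also Fabp5 (11.8-fold, 3.98 to 47.3, and 2.04-fold, 1.67 to 2.49), Tmem123 (6.74-fold, 3.21 to 15.5, and 2.18-fold, 1.63 to 2.96), Il4i1 (2.70-fold, 1.28 to 5.75, and 3.41-fold, 2.08 to 5.87), and the class I genes Psme2 (2.41-fold, 1.08 to 5.39, and 4.08-fold, 2.79 to 6.16) and B2m (2.80-fold, 1.86 to 4.24, and 2.02-fold, 1.71 to 2.40). Ccl17 did not follow it. In late KPfC its level was 7926 CPM with and 7931 CPM without a Fscn1 UMI, and in early KIC 3396 and 6122. Other genes were lower in the members with a Fscn1 UMI, among them 2 of 8 compared MHC class II genes. The lectin Mgl2 was 12.01-fold (1.98 to 492) lower in early KIC and 9.47-fold (4.42 to 23.3) in late KPfC in those with it, and Gm2a, a lipid carrier of the lysosome, 28.9-fold (5.01 to 1159) and 6.03-fold (3.58 to 10.6). Cfp (3.86-fold, 1.18 to 19.9, and 8.42-fold, 4.70 to 16.2), which encodes properdin, H2-DMb1 (4.67-fold, 1.14 to 41.1, and 3.56-fold, 1.98 to 6.62) and H2-Ab1 (2.12-fold, 1.75 to 2.57, and 2.05-fold, 1.82 to 2.32) were lower in the same members. Of the 12 members with a UMI of the cDC2 lectin Cd209a, 11 had no Fscn1 UMI and 1 had. Xcr1 or Clec9a, the cDC1 markers, were seen in 3 members, and no member had both a cDC1 marker and Cd209a. Il12b turned with the library: in late KPfC 82 of 83 UMIs were in members with Fscn1 (48.7-fold higher, 8.50 to 1946), but in early KIC 4 of 23 were (2.11-fold lower, 0.702 to 8.54). The largest share of a single member was 22 of the 83 and 9 of the 23.

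**Figure D5:**
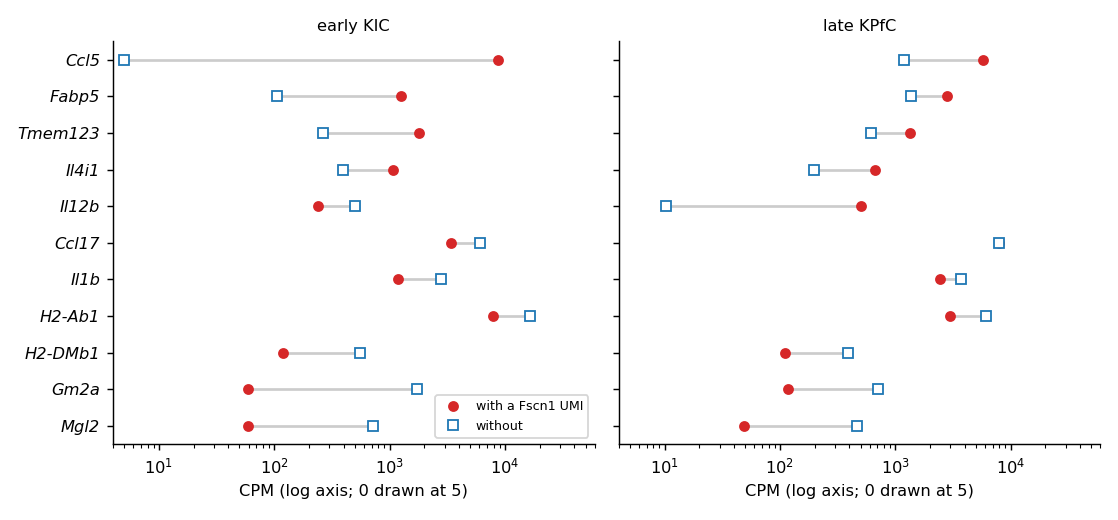
CPM of selected genes in the summed members with and without a Fscn1 UMI, in early KIC and late KPfC (log axis, a value of 0 drawn at 5). Ccl5 lies higher with Fscn1 in both libraries and Mgl2 and Gm2a lower, while the 2 points of Ccl17 in late KPfC coincide at 7926 and 7931 CPM.

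Between tumours, late KPfC and early KIC alone have at least 20 members each, so their sums were set side by side, a pair chosen after the data were seen. Genotype, strain, age, sex of the cells and depth all differ between these libraries and cannot be told apart. Of 1830 genes with at least 20 UMIs in the pair, 368 were at least 2-fold higher in late KPfC (20.1%) and 137 lower (7.49%), with a median log2 ratio of 0.26. Ratios in macrophages of the same libraries are given beside those of the members. Tnfrsf9 was 29.4-fold (5.19 to 1169) higher in the late KPfC members and 26.97-fold in macrophages, and the interferon-inducible transcript AW112010 16.7-fold (5.63 to 81.4) and 11.9-fold. For both genes the ratio was over 10-fold in either cell type. Fabp5 was 4.95-fold (3.32 to 7.71) higher in members and 1.16-fold in macrophages, Cd63 3.30-fold (2.05 to 5.65) and 0.936-fold, and Serpinb6b 4.65-fold (2.31 to 10.9) and 0.407-fold. Whether the ratios of the cell types differ was not tested. Cxcl3 (at least 7.56-fold), S100a8 (at least 5.95-fold) and Pf4 (at least 4.83-fold) had 0 UMIs in early KIC members, and were higher by those folds in late KPfC. In macrophages their ratios were 1.41, 63.5 and 0.407, so Pf4 went the other way there. A single member held 64 of the 108 Cxcl3 UMIs, and another 44 of the 69 of Pf4. Among class II genes, H2-Aa was 2.79-fold (2.56 to 3.04) and H2-Ab1 3.39-fold (3.08 to 3.72) lower in late KPfC members, and the macrophage ratios were 0.445 and 0.532. Cd83 was 2.38-fold (1.75 to 3.21) lower (macrophages 0.206) and Tbc1d4 2.24-fold (1.64 to 3.03) lower (macrophages 2.46). The lowest ratios were those of secretory genes of acinar and islet cells: Clps (at least 548-fold lower), Ins2 (260-fold), Cela1 (243-fold) and Sycn (227-fold), each at least that fold, and Cela2a at 633-fold (174 to 5257). In macrophages of these libraries such genes differed in the same direction. Of chemokines shared by both libraries, Ccl17 was at a ratio of 1.501-fold (1.33 to 1.70) and Ccl5 of 1.53-fold (1.28 to 1.83), while the macrophage ratios were 12.2 and 0.526.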

How the data were processed

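Droplet libraries of normal pancreas (1) and tumour (4) were deposited as UMI counts per gene and barcode (27998 genes), which the authors produced using Cell Ranger (2.1.1) and GRCm38, per the submitters' processing notes. Barcodes were filtered as the report states and no doublet caller was run. Counts were summed per class and library. Macrophages were compared by edgeR 4.0.16 (R 4.3.3; TMM, quasi-likelihood test, Benjamini-Hochberg adjustment) over genes with at least 10 UMIs and UMIs in at least 3 sums; the library was the block, because both classes come from the same tissue. Standard errors were derived from the F value. Other comparisons are CPM ratios with exact binomial 95% intervals and no test; genes needed 20 UMIs, and a 0 was set to 3 counts over the group. DESeq2 1.42.0, thinning to 1500 UMIs, other filters and leaving out each library were alternatives. Scripts were tested on simulated data. The members and lists were chosen with earlier results of these data known. Named genes were list members, the 12 higher and 8 lower with the largest folds (at least 50 UMIs, same sign in every library) and, between libraries, the 5 each way with the firmest interval. Motifs were searched in RefSeq windows with Python 3.11.15. Some results are not reported here.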

Additional observations from a re-analysis of the deposited data

Results flagged for a closer look

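For 4 genes the ratio was at least 2-fold in opposite directions in early KIC and late KPfC, and the difference between the libraries was not tested. Against conventional dendritic cells, Tmed2, a cargo receptor of early secretion, had a log2 ratio of 1.02 in early KIC and -1.27 in late KPfC, the nuclear importer Tnpo3 1.34 and -1.27, and the interferon-induced Ifitm1 1.60 and -1.39. Between members with and without a Fscn1 UMI, Il12b had a log2 ratio of -1.08 in early KIC and 5.61 in late KPfC.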

How the results depend on the processing

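Over 11 alternatives, single calls were followed for the 133 called genes that were named or on the gene lists, not for all 269 higher and 452 lower genes. Of these 133 genes, 69 kept their call wherever they were tested and none changed direction, and 51 lost it without late KPfC. Higher and lower calls against macrophages ranged from 71 to 311 and from 151 to 444 when each library was left out. With DESeq2 size factors in edgeR 409 were higher (all-gene median -0.38), and with thinning 109. DESeq2 called 231 lower, and the fit with no replicate block 237. Of calls, 37.3% were higher, against 48.7% with DESeq2, 52.1% without early KIC and 23.5% thinned. With thinning, 13 genes were higher and 10 lower than in conventional cells (of 358 compared). With at least 50 UMIs, 126 were higher and 54 lower in late KPfC than in early KIC (of 786). The share of members fell to 0 in normal pancreas and 0.784% in late KPfC with thinning, and with Cd74 at 100 per 10000 it was 0.784% in late KPfC and 0.193% in late KPC.

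The tests and alternatives meant for conventional dendritic cells were not run, because 2 libraries alone had at least 5 barcodes of both classes, and no library pair chosen at the outset had 20 members in both. With 1 library per group, depth and late KPfC's share of the UMIs limit what can be called, and in late KPC 1 UMI is already 85.9 CPM.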

Other observations

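A few further lists were compared with macrophages and are read against the all-gene median log2 fold change of -0.50. None of 14 cell cycle genes passed the edgeR test either way (median -1.80, or -1.47 with bounds). Mki67, a marker of dividing cells, had a UMI in 11 members, with a log2 fold change of 0.34 (adjusted p = 0.82). Other cell cycle genes had few UMIs in the members of the tumour libraries. Top2a, Cdk1, Ube2c, Tk1 and Mcm5 had 1 UMI each, Birc5 had 3, and Ccnb1, Ccnb2 and Cdc20 had 0. Mki67 alone therefore does not give the share of dividing members, which was not tested.

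Of 11 genes of hypoxia and glycolysis, 2 were lower (median -1.13), the glucose transporter Slc2a1 (-2.03) and the vessel growth factor Vegfa (-1.67), and both calls were lost in 6 settings. Of 12 genes of dissociation stress, 4 were lower (median -1.33): Jun, Jund, Egr1 and Ier3, of which Ier3 kept its call in all settings that tested it. Of 10 monocyte and neutrophil genes, 3 were lower (median -1.24): Ccr2, Fn1 and Chil3. Of 5 haemoglobin genes, 4 were lower (median -2.96, or -2.77 with bounds).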
